A study of Mus musculus with 24 samples.

Results

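The core circadian clock genes are the 10 genes Per1, Per2, Per3, Cry1, Cry2, Nr1d1, Nr1d2, Arntl, Clock and Dbp, taken by gene symbol and Ensembl identifier from 45706 annotated mouse genes. Their RNA was measured by RNA sequencing in 24 libraries of primary fibroblasts (MEFs) of male C57BL/6 mouse embryos, taken at day 13.5 after head and inner organs had been removed and cultured for 7 days. The libraries formed 8 groups of 3. Cells homozygous for GR Zn/Zn, a mutant allele of the glucocorticoid receptor (GR) that the sample descriptions write as C437G, received dexamethasone (Dex), Dex with LPS, LPS, or ethanol vehicle, and wild-type cells (WT, GR wt/wt) received the same 4 treatments. Dex, a synthetic glucocorticoid that activates GR, was given at 1 uM for 16 h, and bacterial lipopolysaccharide (LPS), an activator of innate immune signalling, at 100 ng/ul for 6 h. The labels do not say how many embryos gave each culture. It is therefore not known whether replicates were separate cultures: p-values then refer to the spread between libraries, which may be technical, and an effect of genotype cannot be told apart from one of the embryos behind it. Each group was sampled at 1 time only, so neither the rhythm nor the phase of the clock was measured.

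The clock is a feedback loop of transcription that runs in nearly every cell, cultured fibroblasts included. CLOCK and BMAL1, the product of Arntl, bind E-box sequences and switch on the Per and Cry genes, the REV-ERB genes Nr1d1 and Nr1d2, and the output gene Dbp. PER and CRY proteins return to the nucleus and repress CLOCK and BMAL1, the REV-ERB receptors repress Arntl, and DBP, a transcription factor of the PAR bZIP family, acts through D-box sequences. Glucocorticoids are widely used to set fibroblast clocks, and Per1 is a classical GR target gene.

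To show what these genes share at their starts, promoter windows of 300 bases, 250 before and 50 from each RefSeq transcription start on (RefSeq, GRCm38.p6), were searched on both strands for 8 motifs. A window was found for 9 of the 10 genes, 13 windows in all, and none was at hand for Per2. The E-box CACGTG, read alike on both strands, lay in the windows of Per1 and Cry1, and its variant CACGTT, on the opposite strand and so read as AACGTG, in those of Cry1, Cry2 and Nr1d1. The D-box TTATGTAA, bound by DBP and its relatives, lay 2 times in the window of Per3. The core element of ROR and REV-ERB receptors, TAGGTCA, lay in 1 window of Arntl. No motif was found in the windows of Nr1d2, Clock and Dbp or in the other window of Per1. Of all 32851 windows in the table, 7.15% held CACGTG, 4.68% CACGTT, 0.938% TTATGTAA and 2.61% TAGGTCA. No window of a clock gene held the D-box palindrome TTACGTAA (0.119% of all windows), the cAMP response element TGACGTCA (1.79%), the glucocorticoid response element core AGAACA (19% of all windows) or its palindrome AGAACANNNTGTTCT (0.00913%). The palindrome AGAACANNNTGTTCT contains the core AGAACA by construction, and no match of 1 motif overlapped that of another in the clock genes' windows. These letter matches describe the windows and are neither sites nor causes. The 4 windows below are examples of those that held a match, with the matches in capitals. They are Per1 and Cry1 for the E-box, Nr1d1 for its variant, and Per3 for the D-box. Each runs 5′ to 3′ on the gene's own strand across the start of a RefSeq transcript: chr11:69098699-69098998 (+) for Per1, within the annotated gene chr11:69095217-69109960, chr10:85185005-85185304 (-) for Cry1, chr11:98775328-98775627 (-) for Nr1d1, and chr4:151044616-151044915 (-) for Per3.
Per1: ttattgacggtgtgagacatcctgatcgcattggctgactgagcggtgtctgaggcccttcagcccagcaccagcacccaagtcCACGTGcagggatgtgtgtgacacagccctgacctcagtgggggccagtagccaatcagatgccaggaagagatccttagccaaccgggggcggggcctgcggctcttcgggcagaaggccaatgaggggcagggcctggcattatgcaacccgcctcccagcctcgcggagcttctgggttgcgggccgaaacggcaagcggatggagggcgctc
Cry1: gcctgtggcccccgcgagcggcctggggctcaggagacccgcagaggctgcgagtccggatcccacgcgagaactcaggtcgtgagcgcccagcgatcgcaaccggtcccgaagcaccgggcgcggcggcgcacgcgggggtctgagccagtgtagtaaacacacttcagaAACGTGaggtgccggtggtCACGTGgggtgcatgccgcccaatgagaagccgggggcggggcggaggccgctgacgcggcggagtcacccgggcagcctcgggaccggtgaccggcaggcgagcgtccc
Nr1d1: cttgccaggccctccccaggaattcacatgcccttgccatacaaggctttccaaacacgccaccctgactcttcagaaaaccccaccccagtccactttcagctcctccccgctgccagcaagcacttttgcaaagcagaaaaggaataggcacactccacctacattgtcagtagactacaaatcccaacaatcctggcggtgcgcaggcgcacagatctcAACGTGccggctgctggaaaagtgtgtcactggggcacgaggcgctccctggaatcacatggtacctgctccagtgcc
Per3: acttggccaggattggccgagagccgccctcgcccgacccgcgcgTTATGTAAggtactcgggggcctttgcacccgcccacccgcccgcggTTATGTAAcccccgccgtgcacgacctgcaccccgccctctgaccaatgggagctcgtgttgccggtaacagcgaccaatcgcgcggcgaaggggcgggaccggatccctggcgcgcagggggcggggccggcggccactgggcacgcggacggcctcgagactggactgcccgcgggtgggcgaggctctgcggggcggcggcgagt
Counted from the start site, the E-box began at base -166 in Per1 and -60 in Cry1, the variant at -79 in Cry1 and -28 in Nr1d1, and the D-boxes at -205 and -158 in Per3.

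Levels are given as CPM, reads of a gene per 1e06 reads counted in the library after scaling for composition by TMM, and between genes as RPKM, CPM per 1000 bases of exon. All 10 clock genes passed the filter on low counts, as did 15221 of the 27088 genes with a read. Their counts per library went down to 32 reads for Dbp and 53 for Per2 and up to 4754 for Per1. The counted reads were 18.9 to 25.5 M in 21 libraries and 43.9 to 58.0 M in the other 3, which carried later library numbers in the labels: GR Zn/Zn vehicle replicate 1, GR Zn/Zn LPS replicate 2 and WT Dex+LPS replicate 3. A count of 3 reads corresponded to 0.0530 to 0.163 CPM. In the WT Dex+LPS replicate 1 and GR Zn/Zn Dex+LPS replicate 2 libraries, long genes were lower than in their group, with Spearman correlations of the deviation with exon length of -0.476 and -0.486 across 15173 genes, which are not independent replicates. These 2 and the 3 deeper ones are the 5 libraries that stood apart, and they are named where a result rests on them. The chi-square per degree of freedom between replicates was 1.54 to 4.98 in 15 pairs of libraries and 8.89 to 64.6 in the 9 pairs with 1 of the 5. The treatments were visible in other genes: the GR target Fkbp5 changed by log2 -0.03 ± 0.05 (SE) with Dex in GR Zn/Zn cells and by 2.89 ± 0.06 in WT cells, and the chemokine gene Cxcl1 rose with LPS by 5.91 ± 0.10 in GR Zn/Zn and 7.61 ± 0.11 in WT cells. All 10 fibroblast markers were expressed, at a sum of 28745 to 37511 CPM. Of 8 leukocyte markers 6 passed the filter and 1 had no read in any library, at sums of 55.8 to 66.3 CPM in GR Zn/Zn and 24.3 to 33.0 CPM in WT libraries, and the 8 liver markers summed to 0.464 to 210.2 CPM.

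The REV-ERB genes were the most abundant of the 10 per length of transcript with vehicle, and Per2 and Per3 the least. In GR Zn/Zn cells with vehicle Nr1d1 stood at 9.25 ± 0.903 RPKM, Nr1d2 at 7.12 ± 0.581 and Arntl at 6.99 ± 0.358 (SD, n = 3), the last 2 with overlapping values. In WT cells with vehicle the RPKM levels ran in the order Nr1d1 8.97 ± 0.535, Nr1d2 7.17 ± 0.284, Arntl 5.52 ± 0.180, Clock 4.89 ± 0.144, Per1 3.87 ± 0.220, Cry1 3.77 ± 0.312, Cry2 2.89 ± 0.307, Dbp 2.07 ± 0.160, Per3 0.778 ± 0.0969 and Per2 0.482 ± 0.0295 (SD, n = 3). Among WT neighbours in that order, Per1 and Cry1 overlapped, and the other neighbours did not. With Dex the WT order was led by Per1 at 16.2 RPKM and Cry1 at 9.95 RPKM, with Nr1d1 at 2.96 RPKM in overlap with Nr1d2 at 2.91 RPKM. Nr1d1 led the order at 8.75 RPKM in GR Zn/Zn cells with Dex.

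**Figure D1:**
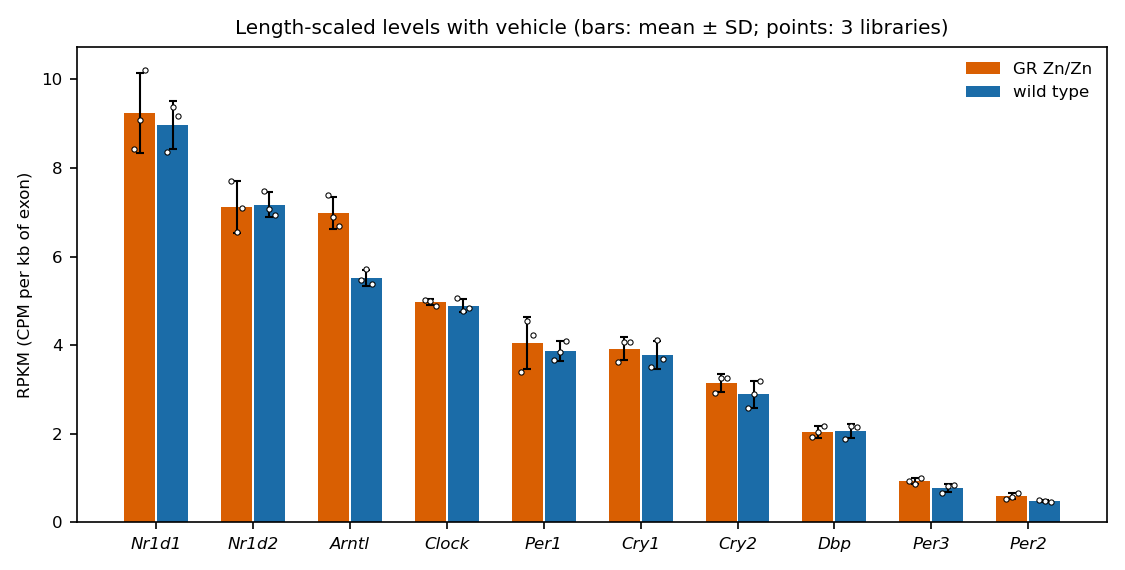
Length-scaled level (RPKM, CPM per kb of exon) of each clock gene in vehicle-treated GR Zn/Zn and WT cells; bars are means, lines the SD, points the 3 libraries. Nr1d1 leads at 9.25 RPKM in GR Zn/Zn and 8.97 RPKM in WT cells, and Per2 is last.

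Dex against vehicle answers which clock genes respond to an activated receptor, and doing so in both genotypes asks whether the response needs an intact GR. No clock gene changed with Dex in GR Zn/Zn cells, and 6 of the 10 did in WT cells: the repressor genes Per1, Per2, Cry1 and Cry2 rose and the REV-ERB genes Nr1d1 and Nr1d2 fell. A gene is called changed here when edgeR's quasi-likelihood test gave a Benjamini-Hochberg adjusted p under 0.05 over all 15221 genes. edgeR called 0% of all genes and 0 of the 10 clock genes in GR Zn/Zn cells. An unadjusted p under 0.05 was seen for 0 of the 10 and for 1109 of all 15221 genes. DESeq2 also called 0 of the 10. In WT cells 13.2% of all genes were called. The median log2 change of the 10 genes was 0.004 in GR Zn/Zn and -0.07 in WT cells, against -0.006 and 7.95e-05 over all genes. In these bulk samples, fewer cells of a type and less RNA per cell cannot be told apart. Marker sums of other cell types overlapped between Dex and vehicle in GR Zn/Zn cells for all 6 lists measured, and did not overlap in WT cells for any of them. With Dex and with vehicle in WT cells, markers of neuron and glia (4 of 5 passing the filter) summed to 102 to 105.2 and 64.0 to 68.9 CPM, of endothelium (4 of 5) to 33.0 to 36.4 and 27.2 to 28.6 CPM, and of skeletal muscle (1 of 5) to 66.6 to 75.5 and 51.3 to 60.9 CPM. Those of epithelium (3 of 5) summed to 8.28 to 10.8 CPM with Dex and 14.1 to 16.5 CPM with vehicle, of leukocytes (6 of 8) to 24.3 to 29.2 and 29.3 to 30.4 CPM, and of liver (8 of 8) to 23.3 to 26.1 and 70.9 to 152 CPM. Their part in the Dex results was not tested.

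Per1 and Per2 encode PERIOD proteins, the repressors that partner the cryptochromes. Per1 stood at 22.9, 24 and 24.1 CPM in GR Zn/Zn cells with Dex, against 19.1, 25.5 and 23.8 CPM with vehicle. In WT cells Per1 had 92.0, 89.0 and 92.5 CPM with Dex, against 20.6, 21.6 and 23.1 CPM with vehicle. The WT Dex libraries lay far above the WT vehicle libraries, and the GR Zn/Zn groups overlapped. The change was log2 0.07 ± 0.09 (SE) in GR Zn/Zn and 2.07 ± 0.09 in WT cells (4.19-fold, adjusted p = 3.37e-13). Per2 had 3.8, 4.05 and 3.39 CPM in GR Zn/Zn cells with Dex and 3.16, 3.38 and 3.88 CPM with vehicle. In WT cells Per2 had 15.4, 16.5 and 14.8 CPM with Dex, against 2.99, 2.84 and 2.65 CPM with vehicle. Per2, the least abundant of the 10 per length in WT vehicle cells, had the highest fold of the 10, 5.51-fold in WT cells (log2 2.46 ± 0.11, adjusted p = 4.61e-13), with log2 0.13 ± 0.12 in GR Zn/Zn cells.

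The cryptochrome genes followed at smaller folds; their proteins bind and block CLOCK and BMAL1. Cry1 had 13.1, 13.4 and 11.2 CPM in GR Zn/Zn cells with Dex and 12.1, 13.6 and 13.6 CPM with vehicle. In WT cells Cry1 had 31.1, 34.0 and 34.6 CPM with Dex, against 11.7, 13.8 and 12.3 CPM with vehicle. Only the WT groups were apart, and Cry1 rose there 2.63-fold (log2 1.40 ± 0.08, adjusted p = 8.70e-12), with log2 -0.05 ± 0.08 in GR Zn/Zn cells. Cry2 had 19.9, 21.3 and 20.2 CPM in GR Zn/Zn cells with Dex and 18.4, 20.6 and 20.6 CPM with vehicle. In WT cells Cry2 had 30.7, 33.7 and 29.5 CPM with Dex, against 16.3, 18.3 and 20.2 CPM with vehicle. Its rise of 1.71-fold was the smallest of the 4 repressor genes in WT cells (log2 0.78 ± 0.07, adjusted p = 3.48e-08), with log2 0.05 ± 0.07 in GR Zn/Zn cells.

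Nr1d1 and Nr1d2 encode REV-ERB alpha and beta, nuclear receptors that repress Arntl. Nr1d1 had 27.5, 26.7 and 26.6 CPM in GR Zn/Zn cells with Dex and 25.9, 28.0 and 31.4 CPM with vehicle. In WT cells Nr1d1 had 9.0, 9.54 and 8.76 CPM with Dex, against 25.7, 28.9 and 28.2 CPM with vehicle. The WT Dex libraries held the 3 lowest values of the 24, a fall of log2 -1.60 ± 0.08 (3.03-fold lower, adjusted p = 8.21e-13), with -0.08 ± 0.07 in GR Zn/Zn cells. Nr1d2 had 35.1, 36.6 and 35.7 CPM in GR Zn/Zn cells with Dex and 41.7, 35.4 and 38.4 CPM with vehicle. In WT cells Nr1d2 had 16.8, 14.0 and 16.4 CPM with Dex, against 40.5, 38.3 and 37.5 CPM with vehicle. The fall was log2 -1.30 ± 0.11 in WT cells (2.47-fold lower, adjusted p = 4.86e-09), and -0.11 ± 0.10 in GR Zn/Zn cells, where the groups overlapped.

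**Figure D2:**
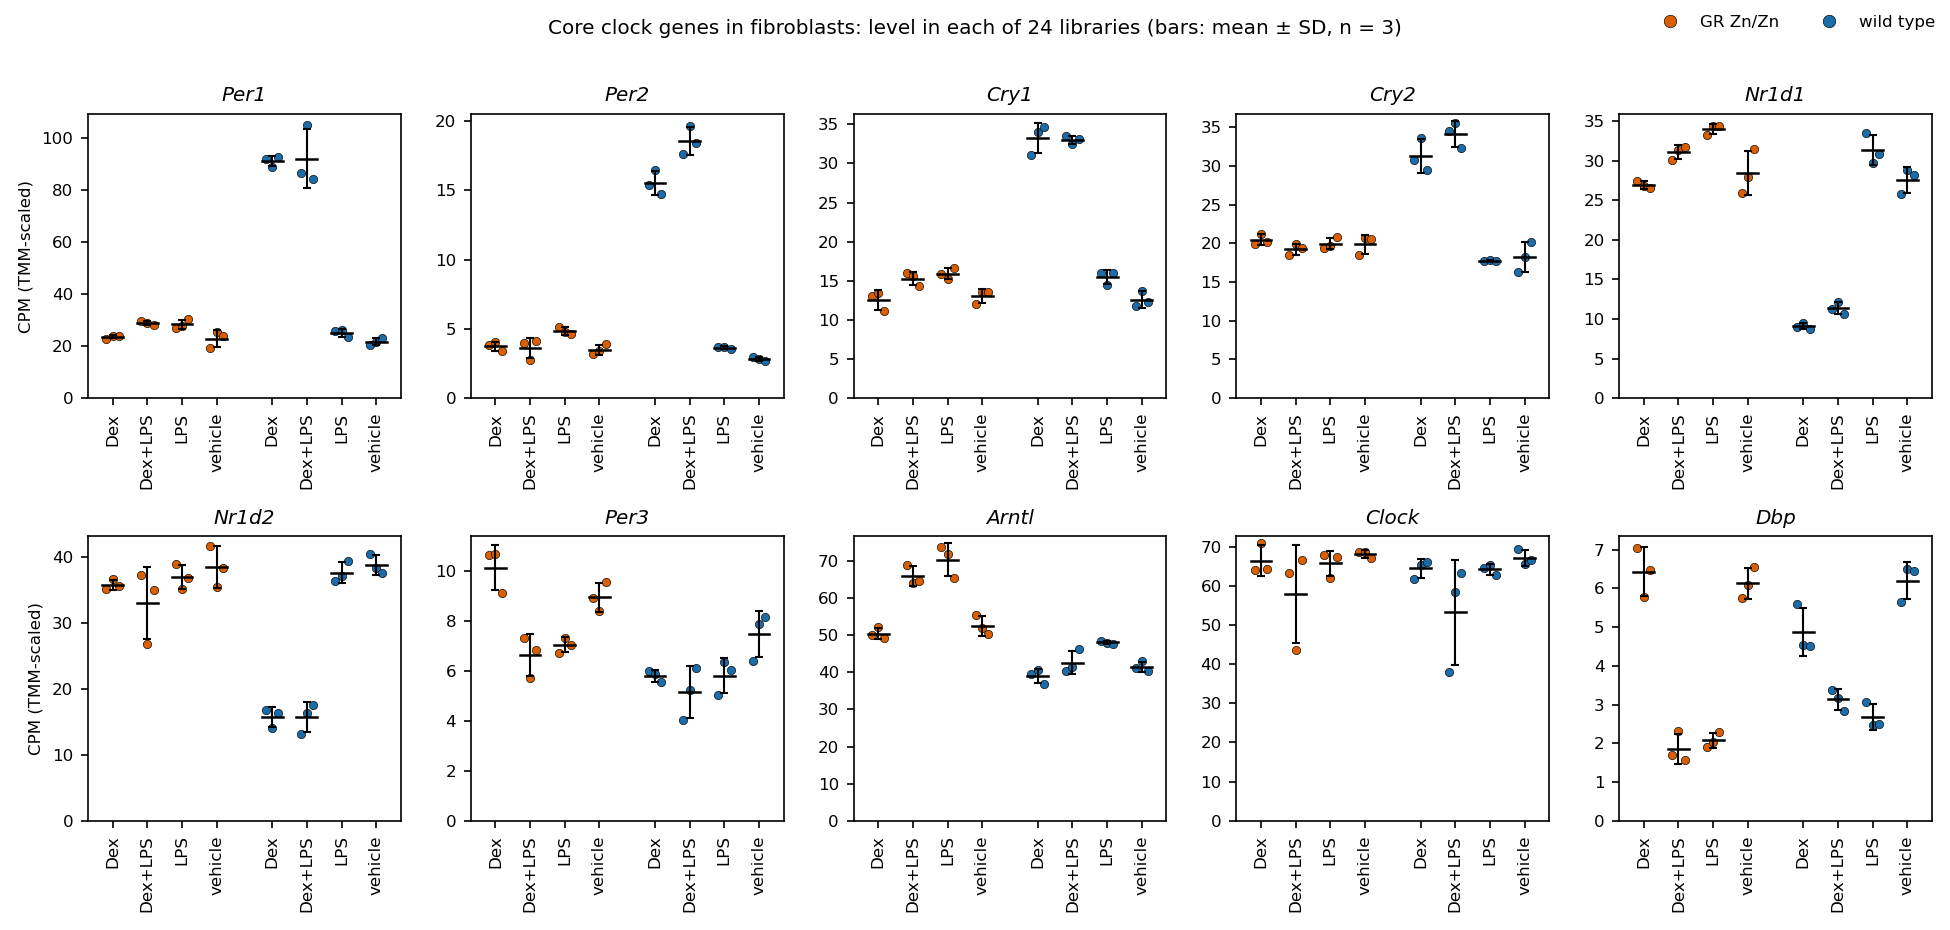
Level of each clock gene (CPM, scaled by TMM) in each of the 24 libraries, GR Zn/Zn groups in orange at the left and WT groups in blue at the right of each panel; lines give the mean and SD of 3 libraries. The WT Dex and Dex+LPS libraries stand apart for Per1, Per2, Cry1, Cry2, Nr1d1 and Nr1d2, and the LPS groups stand low for Dbp in both genotypes.

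The other 4 genes did not pass the test for Dex in either genotype. Per3, another PERIOD gene, had 10.6, 10.7 and 9.09 CPM in GR Zn/Zn cells with Dex and 8.91, 8.37 and 9.54 CPM with vehicle. In WT cells Per3 had 5.99, 5.86 and 5.54 CPM with Dex and 6.41, 7.86 and 8.15 CPM with vehicle, so the WT groups did not overlap, but the change of log2 -0.37 ± 0.13 missed the threshold (adjusted p = 0.0746). Dbp, the output gene, had log2 0.07 ± 0.12 in GR Zn/Zn and -0.34 ± 0.13 in WT cells (adjusted p = 0.0801). Without the 5 libraries named above, none of them WT with Dex or vehicle alone, both passed in WT cells. The values were then log2 -0.37 for Per3 (adjusted p = 0.00704) and -0.35 for Dbp (adjusted p = 0.0216). Per3 also passed without WT vehicle replicate 1 (adjusted p = 0.0394) and Dbp without WT Dex replicate 1 (adjusted p = 0.0371). Most alternatives left both short of the threshold. Of 15 alternative fits, Per3 passed in 4 and Dbp in 3, with adjusted p up to 0.276 and 0.522. The activator genes moved least: Arntl by log2 -0.06 ± 0.06 in GR Zn/Zn and -0.09 ± 0.06 in WT cells, and Clock by -0.04 ± 0.13 and -0.06 ± 0.14. The 95% interval of the Arntl change in WT cells ran from -0.21 to 0.03, and that of Clock from -0.33 to 0.21. Nr3c1, the GR gene itself, was 79.5 ± 1.7 CPM with Dex and 86.5 ± 1.1 CPM with vehicle in GR Zn/Zn cells, and 58.5 ± 2.2 and 89.7 ± 2.9 CPM in WT cells (SD, n = 3).

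The response to Dex differed between the genotypes for the same 6 genes when the difference itself was tested, where 6.99% of all genes were called. The response in GR Zn/Zn minus that in WT cells was log2 -2.00 ± 0.13 for Per1, -2.34 ± 0.16 for Per2, -1.45 ± 0.11 for Cry1 and -0.73 ± 0.10 for Cry2, with adjusted p from 7.07e-10 to 3.03e-05. It was 1.52 ± 0.10 for Nr1d1 and 1.19 ± 0.15 for Nr1d2 (adjusted p = 1.06e-09 and 5.67e-06). For Per3 it was 0.55 ± 0.18, which missed the threshold (adjusted p = 0.0758). The Per3 difference passed without the 5 libraries (adjusted p = 0.00820) or without WT vehicle replicate 1 alone (adjusted p = 0.0429). Of 21 alternative fits it passed in 4, with adjusted p up to 0.215. Over the other 3 genes the difference was 0.02 ± 0.09 for Arntl, 0.02 ± 0.19 for Clock and 0.42 ± 0.17 for Dbp (adjusted p from 0.198 to 0.983).

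The same comparison in cells that also had LPS, Dex with LPS against LPS alone, asks whether the response holds in an inflammatory setting. Again no clock gene changed in GR Zn/Zn cells, and the same 6 changed the same way in WT cells. With edgeR 0 of the 10 were called in GR Zn/Zn cells, where 0.00657% of all genes were called, and DESeq2 called 0 of the 10. An unadjusted p under 0.05 was seen for 1 of the 10 and for 889 of all 15221 genes. In WT cells 21.0% of all genes were called. Per1 in GR Zn/Zn cells averaged 28.8 ± 0.84 CPM with Dex and LPS and 28.3 ± 1.9 CPM with LPS, Cry1 15.3 ± 0.88 and 15.9 ± 0.73 CPM, and Nr1d1 31.0 ± 0.89 and 34.0 ± 0.65 CPM (SD, n = 3). Per2 had 3.95, 2.78 and 4.14 CPM in GR Zn/Zn cells with Dex and LPS, all below 5.15, 4.80 and 4.61 CPM with LPS alone. The 2.78 CPM came from replicate 2, 1 of the 5 libraries that stood apart. The Per2 difference, log2 -0.42 ± 0.12, was the 1 with an unadjusted p under 0.05 and did not pass (adjusted p = 0.344). It ran from -0.52 to -0.26 over 15 alternative fits and passed in 0 of them.

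In WT cells with Dex and LPS Per1 had 86.6, 105 and 84.2 CPM, against 25.8, 26.2 and 23.3 CPM with LPS (log2 1.87 ± 0.09, adjusted p = 7.45e-13). Per2 had 17.6, 19.7 and 18.4 CPM with Dex and LPS, against 3.70, 3.71 and 3.53 CPM with LPS (log2 2.34 ± 0.11, adjusted p = 3.40e-13). The Per1 values with Dex and LPS overlapped those with Dex alone, and the Per2 values lay above them. Cry1 rose to 33.4, 32.5 and 33.2 CPM, against 16.0, 14.5 and 16.0 CPM (log2 1.09 ± 0.08), and Cry2 to 34.5, 35.6 and 32.4 CPM, against 17.7, 17.8 and 17.7 CPM (log2 0.94 ± 0.07). Nr1d1 fell to 11.3, 12.1 and 10.6 CPM, against 33.4, 29.7 and 30.9 CPM (log2 -1.47 ± 0.07), and Nr1d2 to 13.2, 16.3 and 17.6 CPM, against 36.4, 37.2 and 39.4 CPM (log2 -1.25 ± 0.11). None of these 6 pairs of WT groups overlapped, and the adjusted p of Cry1, Cry2, Nr1d1 and Nr1d2 was at most 5.61e-09. Replicates 1 and 3 of WT Dex+LPS are among the 5 libraries, with liver marker sums of 1.02 and 210.2 CPM, and Per1 was 86.6 and 84.2 CPM in them. In WT cells with Dex and LPS against LPS, marker sums were 82.9 to 102.5 against 58.3 to 58.9 CPM for neuron and glia, 7.53 to 9.43 against 14.8 to 16.3 CPM for epithelium, 22.3 to 26.6 against 21.2 to 21.8 CPM for endothelium and 72.9 to 99.0 against 56.4 to 61.2 CPM for skeletal muscle, and their part was not tested. Without the 5, WT Dex+LPS held only replicate 2. The log2 changes from that library were 2.04 for Per1, 2.41 for Per2, 1.05 for Cry1, 0.98 for Cry2, -1.39 for Nr1d1 and -1.22 for Nr1d2.

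**Figure D3:**
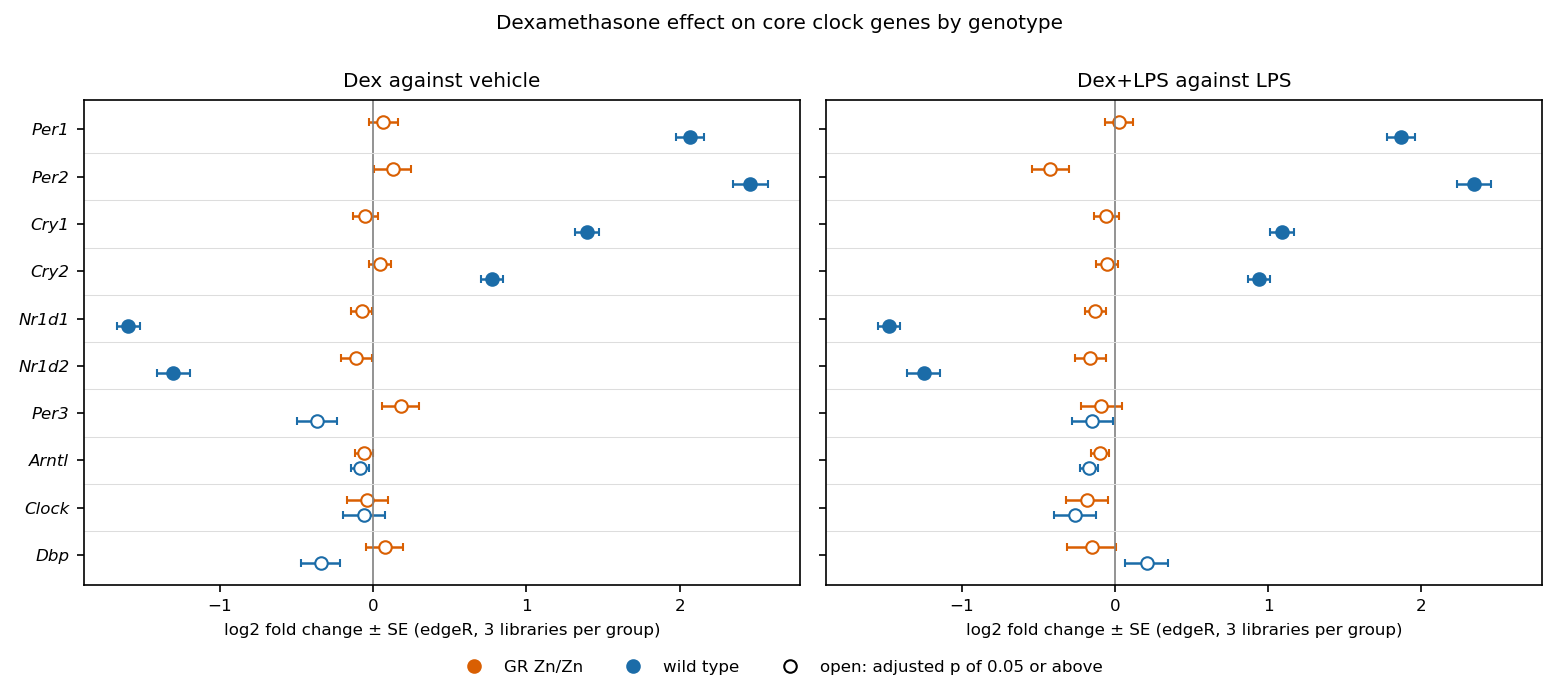
Log2 fold change ± SE of the 10 clock genes for Dex against vehicle (left) and Dex with LPS against LPS (right), GR Zn/Zn in orange above WT in blue; filled points passed an adjusted p under 0.05. Only WT points are filled, for Per1, Per2, Cry1, Cry2, Nr1d1 and Nr1d2 in both panels.

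Arntl and Clock leaned lower with Dex under LPS without passing the test. Arntl had log2 -0.10 ± 0.06 in GR Zn/Zn and -0.17 ± 0.06 in WT cells (adjusted p = 0.0517 in WT). It passed in WT cells without WT Dex+LPS replicate 3 alone (adjusted p = 0.00763). Without the 5 libraries, which leaves WT Dex+LPS with replicate 2 only, the Arntl change was -0.23. Of 15 alternative fits Arntl passed in 4, the fit without the 5 among them, with adjusted p up to 0.279. Clock had 38.1 CPM in WT Dex+LPS replicate 1 and 43.7 CPM in GR Zn/Zn Dex+LPS replicate 2, and 58.4 to 71.0 CPM in the other 22 libraries. Those 2 are the libraries in which long genes were low, and Clock has the longest exon sequence of the 10, 13727 bases; the part of that in the low Clock values was not tested. Its change with Dex under LPS was -0.18 ± 0.14 in GR Zn/Zn and -0.26 ± 0.14 in WT cells. Without the 5 libraries it was -0.05 in GR Zn/Zn cells (adjusted p = 0.859). In WT cells it was then -0.15, from replicate 2 alone of WT Dex+LPS. Leaving out WT Dex+LPS replicate 3, which keeps the low library, gave -0.41 (adjusted p = 0.0347), and leaving out the low replicate 1 gave -0.07 (adjusted p = 0.712).

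Tested directly, the response to Dex under LPS differed between the genotypes for 6 genes, where 10.4% of all genes were called. The difference, GR Zn/Zn minus WT, was -1.84 ± 0.13 for Per1, -2.76 ± 0.16 for Per2, -1.15 ± 0.11 for Cry1, -0.99 ± 0.10 for Cry2, 1.35 ± 0.10 for Nr1d1 and 1.09 ± 0.15 for Nr1d2 (adjusted p at most 1.18e-05). Within WT cells, whether LPS altered the response to Dex was also tested. None of the 10 passed by edgeR or DESeq2, and 1.56% of all genes were called by edgeR. An unadjusted p under 0.05 was seen for 2 of the 10 and for 1570 of all 15221 genes. The closest were Cry1, whose rise with Dex was lower under LPS by log2 -0.31 (95% interval -0.52 to -0.09, adjusted p = 0.243), and Dbp, at 0.55 (0.18 to 0.92, adjusted p = 0.216). For Per1 the interval was -0.44 to 0.05 and for Nr1d1 -0.08 to 0.33, so differences within these intervals are not excluded.

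LPS against vehicle asks how the clock genes respond to an inflammatory signal. Dbp fell in both genotypes, Arntl, Cry1 and Per2 rose, Per3 fell, and the changes other than that of Dbp were at most log2 0.50 in size. In GR Zn/Zn cells 7 of the 10 passed, 5 higher and 2 lower, where 36.7% of all genes were called. In WT cells 5 passed, 3 higher and 2 lower, where 26.4% of all genes were called. The median log2 change of the 10 was 0.13 in GR Zn/Zn and 0.07 in WT cells, against 8.41e-04 and -0.008 over all genes. The LPS and Dex comparisons of a genotype share the vehicle libraries.

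Dbp, a target of CLOCK and BMAL1 whose protein drives D-box genes, had 1.91, 2.03 and 2.28 CPM in GR Zn/Zn cells with LPS, against 5.75, 6.09 and 6.54 CPM with vehicle. In WT cells Dbp had 3.06, 2.48 and 2.5 CPM with LPS, against 5.65, 6.51 and 6.45 CPM with vehicle. The groups were far apart in both genotypes, with counts of 44 to 86 reads in the GR Zn/Zn LPS libraries and 46 to 67 in the WT LPS libraries. The fall was log2 -1.56 ± 0.13 in GR Zn/Zn (2.96-fold lower, adjusted p = 2.79e-09) and -1.21 ± 0.14 in WT cells (2.31-fold lower, adjusted p = 3.10e-07). Dbp stayed low where Dex was also given, at 1.69, 2.31 and 1.58 CPM in GR Zn/Zn and 3.38, 3.18 and 2.83 CPM in WT cells. Marker sums of other cell types differed between these libraries as well. Endothelial markers (4 of 5 passing the filter) summed to 7.26 to 8.16 CPM with LPS and 10.8 to 12.9 CPM with vehicle in GR Zn/Zn cells, and to 21.2 to 21.8 and 27.2 to 28.6 CPM in WT cells, with no overlap in either. Liver markers (8 of 8) summed to 19.7 to 128 CPM with LPS and 24 to 188 CPM with vehicle in GR Zn/Zn cells, which overlapped, and to 0.598 to 30.0 and 70.9 to 152 CPM in WT cells, which did not. Epithelial markers (3 of 5) were apart in GR Zn/Zn cells, at 3.24 to 3.47 CPM with LPS and 3.99 to 4.23 CPM with vehicle, and neuron and glia markers (4 of 5) in WT cells, at 58.3 to 58.9 and 64.0 to 68.9 CPM. Alb, the defining liver gene, had 0 reads in 1 of the 24 libraries, WT Dex+LPS replicate 1. The part of these cell types in the Dbp result was not tested. Without the 5 libraries the fall of Dbp was -1.61 in GR Zn/Zn and -1.21 in WT cells.

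**Figure D4:**
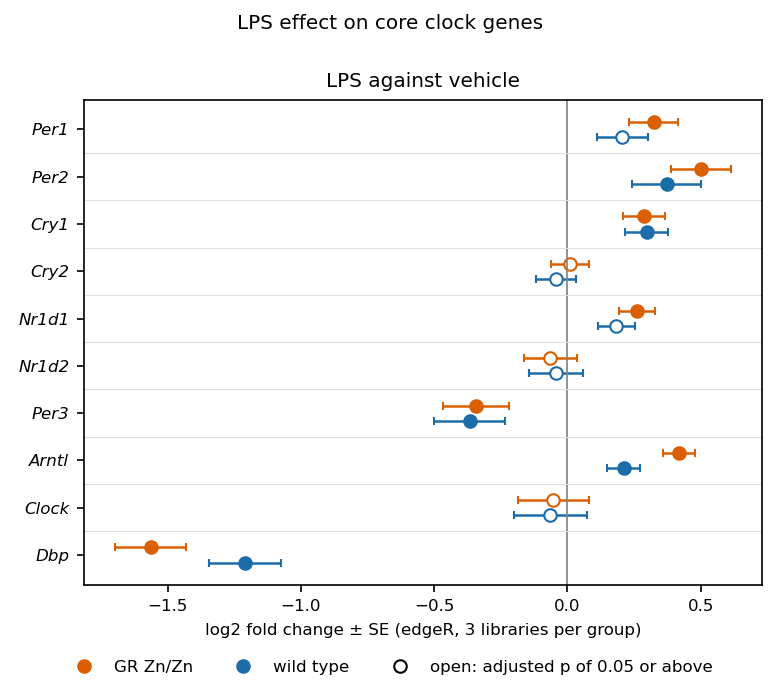
Log2 fold change ± SE of the 10 clock genes for LPS against vehicle, GR Zn/Zn in orange above WT in blue; filled points passed an adjusted p under 0.05. Dbp lies at -1.56 in GR Zn/Zn and -1.21 in WT cells, and the largest change of another gene is 0.50, for Per2 in GR Zn/Zn cells.

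Arntl, which encodes BMAL1, had 73.8, 71.8 and 65.5 CPM in GR Zn/Zn cells with LPS, against 55.6, 51.8 and 50.3 CPM with vehicle (log2 0.42 ± 0.06, adjusted p = 5.68e-06). In WT cells it had 48.5, 47.9 and 47.7 CPM with LPS, against 41.1, 43.0 and 40.4 CPM with vehicle (log2 0.21 ± 0.06, adjusted p = 0.0125). Both pairs of groups were apart. Cry1 rose by log2 0.29 ± 0.08 in GR Zn/Zn (adjusted p = 0.00601) and 0.30 ± 0.08 in WT cells (adjusted p = 0.00858). Per2 rose by 0.50 ± 0.11 in GR Zn/Zn (adjusted p = 0.00128) and 0.37 ± 0.13 in WT cells (adjusted p = 0.0356). Per3 fell by 0.34 ± 0.12 in GR Zn/Zn (adjusted p = 0.0341) and by 0.37 ± 0.13 in WT cells (adjusted p = 0.0462). Per1 and Nr1d1 rose in GR Zn/Zn cells, by 0.32 ± 0.09 and 0.26 ± 0.07, and were at 0.21 and 0.18 in WT cells without passing (adjusted p = 0.118 and 0.0558). Nr1d2, Cry2 and Clock lay between -0.06 and 0.01 in both genotypes. Some of these calls were lost when 1 library was left out. The log2 change of Per2 in WT cells stayed at 0.33 to 0.42 over 15 alternative fits. In WT cells Per2 missed the threshold without any 1 of vehicle replicates 2 and 3 and LPS replicates 1, 2 and 3 (adjusted p = 0.0537 to 0.128), and in DESeq2 (0.0865). Per3 missed it in WT cells without vehicle replicate 2 or 3 or LPS replicate 1 or 3 (0.0786 to 0.225), and in DESeq2 (0.0522). Arntl missed it in WT cells without vehicle replicate 3 or LPS replicate 1 (0.0683 and 0.0501). Without the 5 libraries, Per1 and Nr1d1 passed in WT cells too (adjusted p = 0.00420 and 0.00924). Per1, Cry1 and Nr1d1 no longer passed in GR Zn/Zn cells without the 3 deeper libraries (adjusted p = 0.0723, 0.0502 and 0.0714), nor Per1 and Cry1 without vehicle replicate 1 alone (0.0937 and 0.0631). Per3 missed the threshold there without vehicle replicate 1 or 3 or LPS replicate 1 or 3 (0.0589 to 0.0881).

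No clock gene's response to LPS differed between the genotypes when the difference itself was tested by edgeR or DESeq2, where edgeR called 0.539% of all genes. An unadjusted p under 0.05 was seen for 1 of the 10 and for 1337 of all 15221 genes. The difference, GR Zn/Zn minus WT, was log2 0.21 for Arntl (95% interval 0.04 to 0.38, adjusted p = 0.460) and -0.35 for Dbp (-0.73 to 0.02, adjusted p = 0.638). For the other 8 genes the intervals all held 0 and lay between -0.36 and 0.47.

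With vehicle alone, GR Zn/Zn cells differed from WT cells in 1 of the 10 genes, where 18.8% of all genes were called. Arntl was higher, at 52.6 ± 2.7 CPM in GR Zn/Zn and 41.5 ± 1.4 CPM in WT cells (SD, n = 3; log2 0.34 ± 0.06, adjusted p = 1.92e-04), and the groups did not overlap. Marker sums separated the same groups: leukocyte markers were 60.9 to 64.9 CPM in GR Zn/Zn and 29.3 to 30.4 CPM in WT cells, endothelial markers 10.8 to 12.9 and 27.2 to 28.6 CPM, epithelial markers 3.99 to 4.23 and 14.1 to 16.5 CPM, and skeletal muscle markers 12.4 to 15.0 and 51.3 to 60.9 CPM. Their part in the Arntl difference was not tested. The other 9 genes ranged from log2 -0.02 for Dbp to 0.28 for Per2 (95% interval of Per2 0.04 to 0.53, adjusted p = 0.158). Nr1d1 was at 0.04 ± 0.07 (edgeR adjusted p = 0.997), a p higher than its SE alone would give.

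The way reads were assigned to strands matters for 3 of the genes. The strand-specific counts used here give Dbp 2583 reads over the 24 libraries, and counting without strand leaves it 54.7% of them, 45.6 to 72.4% per library. Dbp (chr7:45705088-45710203, + strand, GRCm38) shares 539 exon bases with Sphk2, a sphingosine kinase gene on the opposite strand, and a count without strand leaves out reads that lie on both genes. Nr1d1 (chr11:98767932-98775333, - strand) keeps 91.5% and shares 263 exon bases with Thra, the thyroid hormone receptor alpha gene. Cry2 (chr2:92403646-92434043, - strand) keeps 93.4% and shares 295 exon bases with D930015M05Rik. The other 7 keep 100 to 100.5%. With counts without strand the fall of Dbp with LPS was log2 -1.71 in GR Zn/Zn and -0.96 in WT cells, and it passed in both (adjusted p = 1.06e-07 and 3.46e-04).

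**Figure D5:**
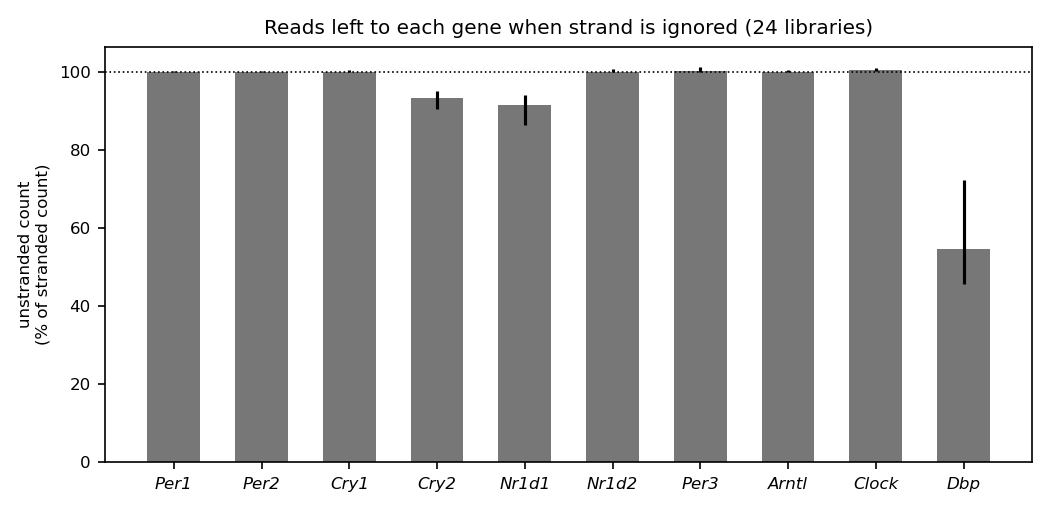
Reads left to each clock gene when strand is ignored, as a percentage of its strand-specific count summed over 24 libraries (bars); lines span the lowest and highest library. Dbp keeps 54.7%, Nr1d1 91.5% and Cry2 93.4%, and the other 7 keep their reads.

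The authors' deposited tables give Dex comparisons for 12588 genes. In the authors' deposited table for WT cells the same 6 clock genes had an adjusted p under 0.05, both for Dex against vehicle and for Dex with LPS against LPS, and none did in GR Zn/Zn cells. The share of the 12588 genes under that threshold was not counted. The log2 changes in the authors' deposited table for Dex in WT cells were 2.06 for Per1, 2.46 for Per2, 1.39 for Cry1, 0.79 for Cry2, -1.61 for Nr1d1 and -1.31 for Nr1d2. For Dbp the authors' deposited table gave -0.23 (adjusted p = 0.595) for Dex in WT cells and -0.02 (adjusted p = 0.970) under LPS. The strand-specific counts used here gave -0.34 and 0.21 for Dbp in those comparisons, and counts without strand -0.22 and -0.003.

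Of a list of 22 other clock genes, 21 passed the filter. With Dex, 0 of them were called in GR Zn/Zn cells (0% of all genes) and 7 in WT cells (13.2% of all genes), 6 higher and 1 lower. DESeq2 called 0 of them in GR Zn/Zn cells, with or without LPS. By edgeR 1 had an unadjusted p under 0.05 there (1109 of all 15221 genes), and 3 under LPS (889 of all 15221 genes). Wee1, a cell cycle kinase under clock control, had 17.2, 17.9 and 17.6 CPM in GR Zn/Zn cells with Dex and 19.8, 19.1 and 18.4 CPM with vehicle. In WT cells Wee1 had 42.5, 42.4 and 42.2 CPM with Dex, against 23.4, 20.4 and 19.9 CPM with vehicle (log2 1.00 ± 0.07, adjusted p = 3.05e-10). In WT cells Dex also raised Nfil3, a repressor at D-boxes (0.83 ± 0.07), Ciart, a repressor of CLOCK and BMAL1 (0.74 ± 0.14), Usp2, a deubiquitinase (0.45 ± 0.11), Nampt, an enzyme of NAD synthesis (0.35 ± 0.09), and Tef, of the same family as Dbp (0.20 ± 0.05). Csnk1e, a casein kinase that phosphorylates PER proteins, fell by 0.17 ± 0.05 (adjusted p = 0.0447). The response to Dex was lower in GR Zn/Zn than in WT cells for Wee1 (-1.12 ± 0.10), Ciart (-0.80 ± 0.19), Nfil3 (-0.77 ± 0.10) and Nampt (-0.51 ± 0.12), and none of the 21 was called higher (6.99% of all genes were called). Under LPS, 0 were called with Dex in GR Zn/Zn cells (0.00657% of all genes) and 9 in WT cells (21.0% of all genes), 6 higher and 3 lower, among them Ciart (1.25 ± 0.13), Wee1 (1.03 ± 0.07) and, among the lower, Bhlhe40, a repressor at E-boxes (-0.39 ± 0.05).

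With LPS, 14 of the 21 were called in GR Zn/Zn cells (36.7% of all genes), 6 higher and 8 lower, and 12 in WT cells (26.4% of all genes), 6 and 6. All 3 PAR bZIP genes, Dbp, Tef and Hlf, fell in both genotypes. Tef had 39.6, 37.4 and 40.1 CPM in GR Zn/Zn cells with LPS, against 52.1, 50.5 and 50.5 CPM with vehicle (log2 -0.39 ± 0.05). In WT cells Tef had 44.7, 44.2 and 41.5 CPM with LPS, against 51.8, 50.3 and 49.8 CPM with vehicle (log2 -0.22 ± 0.05, adjusted p = 0.00395). Hlf changed by -1.33 ± 0.29 in GR Zn/Zn and -1.66 ± 0.36 in WT cells at low levels, 0.387 ± 0.12 CPM with LPS and 1.04 ± 0.13 CPM with vehicle in GR Zn/Zn, and 0.223 ± 0.045 and 0.712 ± 0.16 CPM in WT cells (SD, n = 3). Bhlhe40 rose by 0.82 ± 0.05 in GR Zn/Zn and 0.70 ± 0.05 in WT cells, Nampt by 0.73 ± 0.08 and 0.53 ± 0.09, and Nfil3 by 0.32 ± 0.07 and 0.35 ± 0.07. Usp2 fell by 0.84 ± 0.11 in GR Zn/Zn and by 0.56 ± 0.12 in WT cells.

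The 6 genes called for Dex in WT cells were also compared with each other over the means of the 8 groups, which include the WT Dex groups that chose them. Pearson's r of log2 CPM was 0.99 between Per1 and Per2, 0.99 between Per1 and Cry1, and 0.97 between Nr1d1 and Nr1d2, and -0.93 between Per2 and Nr1d1 and -0.99 between Per1 and Nr1d2. These values describe 8 group means and are fixed in part by that choice. Among all tested genes with an average log2 CPM of at least 1, those most like Per1 over the 8 means were Tmem38b (r = 0.995), Cry1 (0.992) and Hps3 (0.991). Nearest to Per2 were Tmem38b (0.991), Vgll3 (0.991) and Hps3 (0.988), to Cry1 Per1 (0.992), Mbd2 (0.992) and Ehd3 (0.990), and to Cry2 Vgll3 (0.988), Pi15 (0.982) and Tmem38b (0.981). Nearest to Nr1d1 were 9930014A18Rik (0.988), Ccn4 (0.986) and Sipa1l2 (0.983), and to Nr1d2 Lef1 (0.990), Lpin2 (0.990) and Has2 (0.989).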

How the data were processed

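RNA from the 24 libraries was prepared with a stranded mRNA kit (TruSeq), per the labels' protocols. The deposited files hold read counts per gene, made by the authors with STAR (2.4.2 and 2.4.2a) on mm10, per the submitters' processing notes. The counts of the strand that this kit reports were used. Entries naming no gene stayed out: 3.10 to 4.72% of reads in no feature, 3.74 to 5.79% multimapping, 2.92 to 5.58% unmapped and 1.18 to 1.41% ambiguous. The authors' deposited tables also give log2 fold changes and adjusted p-values for 12588 genes, printed as theirs; DESeq and DESeq2 are named in the submitters' processing notes, and a further 96 columns with values of samples stayed unused.

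All 24 libraries entered 1 edgeR fit (4.0.16, R 4.3.3; TMM scaling, filterByExpr, robust quasi-likelihood test, 1 coefficient per group), and p-values were adjusted by Benjamini-Hochberg over 15221 genes in each of 11 comparisons. SE is the absolute log2 change divided by the root of the F statistic, and intervals are 1.96 SE wide on each side. For some genes edgeR's p was higher than that F statistic alone gives, so p and interval do not always match. CPM are TMM-scaled, and RPKM used exon lengths of GENCODE vM21 (GRCm38). The fit was also run on simulated counts drawn from the WT vehicle means, with the same spread for all genes. Changes were set in WT Dex only, and no library with low long genes was simulated. Alternatives included DESeq2 (1.42.0), no filter, other scaling, left-out libraries and counts without strand. The genes and lists were chosen with earlier results of these data known. Named were the 10 genes, called genes of the other clock list, the 3 genes most like each gene called for Dex in WT cells, check genes and overlapping genes.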

Additional observations from a re-analysis of the deposited data

Results flagged for a closer look

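The response to Dex differed between GR Zn/Zn and WT cells for 6 clock genes by the test of the difference itself, which is why they are listed. The log2 response in GR Zn/Zn minus that in WT cells was -2.00 for Per1, -2.34 for Per2, -1.45 for Cry1, -0.73 for Cry2, 1.52 for Nr1d1 and 1.19 for Nr1d2. All 3 Dex libraries of GR Zn/Zn cells lay outside the range of the 3 WT Dex libraries for each of the 6. The same libraries entered the test that listed these genes, so this is no separate support.

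Under LPS the same test gave -1.84 for Per1, -2.76 for Per2, -1.15 for Cry1, -0.99 for Cry2, 1.35 for Nr1d1 and 1.09 for Nr1d2, again GR Zn/Zn minus WT. Dixon's test for a single outlying library was not applied.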

How the results depend on the processing

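No called change of a clock gene reversed in any alternative run. Of 1890 values of a gene under an alternative, 1837 kept their side of the threshold, 26 fell short of it and 27 newly passed it. The sign differed in 81 of the 1837, none of them called in either fit, all with a log2 value of at most 0.36 in size in the fit of all libraries. The counts of 6 clock genes for Dex and for Dex under LPS in WT cells ran from 6 to 8 over the fits, and from 6 to 7 and from 6 to 8 when 1 library was left out. For Dex the count was 8 with only the libraries compared (4659 of 14208 genes called) and without the 5 libraries (4330 of 15758). For Dex under LPS it was 8 without the 3 deeper libraries (5052 of 15317 genes called). The count of 7 for LPS in GR Zn/Zn cells was 4 without the 3 deeper libraries, where 4631 of 15317 genes were called. It was 4 to 7 with 1 library left out, the 4 without vehicle replicate 1 (4810 of 15413 genes called). The count of 5 for LPS in WT cells was 3 with DESeq2 (3857 of 15221 genes called) and 3 with no filter (3466 of 27088). With 1 library left out it was 2 to 5, the 2 without vehicle replicate 3 (3216 of 15426) or LPS replicate 1 (3227 of 15461). It was 7 with only the libraries compared (6847 of 14180), without the 3 deeper (4784 of 15317) or without the 5 libraries (6676 of 15758). With the library number series as a term it was 6 (4461 of 15221). The count of 1 for GR Zn/Zn against WT with vehicle was 2 without the 5 libraries named above (4620 of 15758 genes called), by Per1 (log2 0.18, adjusted p = 0.0380). The cause of these shifts was not tested.

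Counts over all genes moved more. A fit of only the libraries compared called 4659 genes for Dex in WT cells (2003 in the fit of all libraries), 6847 for LPS in WT cells (4020), 1544 for Dex under LPS in WT cells (3198), 0 for Dex under LPS in GR Zn/Zn cells (1), and for the genotype differences 1659 with Dex (1064), 1042 with Dex under LPS (1581) and 146 with LPS (82). Leaving out the 5 libraries keeps only replicate 2 of WT Dex+LPS, so counts of comparisons with that group are not given. The others were then 4330 for Dex and 6676 for LPS in WT cells, and 160 for Dex under LPS in GR Zn/Zn cells. The genotype differences had 2191 with Dex and 405 with LPS. Dex in GR Zn/Zn cells had 5 (0), and GR Zn/Zn against WT with vehicle 4620 (2861). Without the 3 deeper libraries Dex under LPS in WT cells had 5052 and the dependence of the Dex response on LPS 387 (238). Dex in GR Zn/Zn cells then had 1, or 0 under LPS. DESeq2 called 3 genes for Dex in GR Zn/Zn cells, 31 under LPS and 149 for the genotype difference of LPS, which was 134 with the library number series as a term and 34 without GR Zn/Zn vehicle replicate 1. Dex under LPS in GR Zn/Zn cells had 6 genes with no filter, 2 with the series term and 27 without Dex+LPS replicate 2.

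No pairing by replicate number was seen. Correlations of deviations between same-numbered libraries of different groups ran from -0.576 to 0.348 over 84 pairs. In 0 of 28 pairs of groups were all 3 above 0.1. The deviations are from means of only 3 libraries, so a weak pairing is not excluded. With the replicate number as a block, Per3 with LPS in WT cells missed the threshold (log2 -0.36, adjusted p = 0.0517). That left 4 clock genes called in place of 5, where 3903 of 15221 genes were called. Dex under LPS in GR Zn/Zn cells had 12 genes called in place of 1. The block changed no other call of a clock gene. Depth limits Dbp, Per2 and Per3 most, whose lowest counts were 32, 53 and 91 reads.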

Other observations

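With vehicle alone, 7 of the 21 other clock genes tested differed between GR Zn/Zn and WT cells, 5 higher and 2 lower, where 18.8% of all genes were called. Usp2, the deubiquitinase gene, had 7.29, 8.8 and 9.37 CPM in GR Zn/Zn cells, against 5.51, 5.37 and 5.42 CPM in WT cells (log2 0.63 ± 0.11, edgeR adjusted p = 1.50e-04), with no overlap. Npas2, which encodes a relative of CLOCK that also pairs with BMAL1, averaged 2.74 ± 0.17 CPM in GR Zn/Zn and 1.7 ± 0.19 CPM in WT cells (SD, n = 3; log2 0.68 ± 0.21, adjusted p = 0.0266). Ciart was higher by log2 0.39 ± 0.14, Nfil3 by 0.23 ± 0.07 and Timeless, named for a fly clock gene, by 0.21 ± 0.06. Fbxw11, which encodes an F-box protein that targets PER proteins for breakdown, and Csnk1e were lower, at log2 -0.26 ± 0.07 and -0.19 ± 0.05. The leukocyte, endothelial, epithelial and skeletal muscle marker sums given with Arntl separated the same groups, and their part was not tested.

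Nampt was the 1 other clock gene whose response to Dex in WT cells depended on LPS by edgeR, just within the threshold (log2 -0.47 ± 0.12 under LPS relative to without, adjusted p = 0.04997). In that comparison edgeR called 1.56% of all genes, and DESeq2 called 2 of the 21.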
